A study of Mus musculus with 30 samples.

Results

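The genes described here encode the meiosis-specific cohesin subunits REC8, SMC1B, STAG3 and RAD21L and the HORMA-domain axis proteins HORMAD1 and HORMAD2. They were taken by gene symbol from the probe annotation, with the probe set of highest mean over all 30 arrays standing for each gene, and are 6 of the 19937 named genes on the array. Of the 6, 5 passed the filter on dim signal, each of them on all 30 arrays, and Rad21l did not. The cells were mouse primordial germ cells, the precursors of eggs and sperm, which were dissociated from fetal gonads and sorted for GFP, expressed from an Oct4(deltaPE)-GFP transgene, and each array held amplified RNA of 500 cells. All embryos were on a mixed 129/Sv and C57BL6J background, and all carried intact Ring1 (Ring1+). The Rnf2delta groups (Ring1+;Rnf2delta) were females and males at E11.5 and at E12.5, and the control groups (Ring1+;Rnf2+) were the same 4 plus E13.5 females and E13.5 males, with 3 arrays in each of the 10 groups. Rnf2 encodes RING1B, a ubiquitin ligase of Polycomb repressive complex 1, and Ring1 its paralogue. The sources used here name neither the driver of the deletion nor separate embryos or litters for arrays of the same group, so p-values measure only the spread between these arrays. The arrays measured pools of sorted cells, so that fewer cells expressing a gene and less RNA per cell cannot be told apart.

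Cohesin is a ring that holds sister chromatids together. In meiosis part of it is built from special subunits: REC8 and RAD21L are the kleisins that close the ring, in place of mitotic RAD21, SMC1B is the partner of SMC3 in place of SMC1A, and STAG3 binds the kleisin in place of STAG1 or STAG2. HORMAD1 and HORMAD2 coat the chromosome axes that these cohesins organise and leave the axes where homologues have synapsed. HORMAD1 promotes pairing and recombination there. Female mouse germ cells enter meiosis in the fetal ovary, beginning at about the last of the stages sampled here, whereas male germ cells stop dividing in the fetal testis and enter meiosis only after birth.

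Promoters are shown because the deleted gene encodes a Polycomb subunit, and a variant complex with E2F6, MGA and MAX is known to bind promoters of germline genes in mouse cells, Smc1b and Stag3 among them. All 6 genes matched RefSeq promoter entries on GRCm38.p6, with 1 entry each except for Hormad1, which had 2 that started 2 bases apart. The windows shown hold 200 bases before the annotated start and 30 after it, for the 5 genes with measurable signal, read 5′ to 3′ on the gene's strand. They lie at chr14:55617966-55618195 on the plus strand for Rec8, chr15:85131928-85132157 on the minus strand for Smc1b, chr5:138280309-138280538 on the plus strand for Stag3, chr3:95559477-95559706 on the plus strand for the first entry of Hormad1, and chr11:4441053-4441282 on the minus strand for Hormad2. Capitals mark matches to the searched motifs on either strand.
Rec8: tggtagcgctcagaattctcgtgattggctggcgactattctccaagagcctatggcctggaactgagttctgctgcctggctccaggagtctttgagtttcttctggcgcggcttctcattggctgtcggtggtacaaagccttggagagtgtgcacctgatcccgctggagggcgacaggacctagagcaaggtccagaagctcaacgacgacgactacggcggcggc
Smc1b: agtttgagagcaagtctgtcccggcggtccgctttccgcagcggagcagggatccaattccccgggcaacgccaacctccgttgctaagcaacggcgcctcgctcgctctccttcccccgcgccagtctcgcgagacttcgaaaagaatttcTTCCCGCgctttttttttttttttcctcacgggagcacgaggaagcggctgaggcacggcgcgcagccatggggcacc
Stag3: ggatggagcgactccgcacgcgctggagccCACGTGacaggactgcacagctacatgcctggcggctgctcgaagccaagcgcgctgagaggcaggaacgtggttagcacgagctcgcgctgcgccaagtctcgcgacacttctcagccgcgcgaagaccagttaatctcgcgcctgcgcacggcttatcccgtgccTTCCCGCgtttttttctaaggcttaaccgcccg
Hormad1: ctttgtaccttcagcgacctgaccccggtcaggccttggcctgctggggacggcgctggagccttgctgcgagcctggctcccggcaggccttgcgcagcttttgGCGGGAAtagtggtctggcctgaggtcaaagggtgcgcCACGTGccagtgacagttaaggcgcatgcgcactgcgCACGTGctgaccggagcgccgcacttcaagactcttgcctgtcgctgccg
Hormad2: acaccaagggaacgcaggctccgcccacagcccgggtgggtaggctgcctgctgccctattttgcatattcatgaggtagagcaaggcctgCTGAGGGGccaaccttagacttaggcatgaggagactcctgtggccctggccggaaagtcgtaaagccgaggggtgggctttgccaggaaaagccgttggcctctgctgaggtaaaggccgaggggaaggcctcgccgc
The E2F6-type letters GCGGGAA, held by 4.6% of the 32851 promoter windows of 300 bases, occurred in Smc1b, Stag3 and Hormad1. The E-box CACGTG, held by 7.15% of the windows, occurred once in Stag3 and at 2 places in Hormad1. The STRA8-type letters CNCCTCAG, held by 7.94%, occurred in Hormad2, and the retinoic acid response letters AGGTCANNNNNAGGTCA, held by 0.00913%, in none of the 6. Neither Rec8 nor Rad21l held any of the 4 motifs in these windows. The Rad21l window, chr2:151668484-151668783 on the minus strand, lies inside the annotated gene (chr2:151644366-151670622) and not at its 5′ end. That of Stag3 likewise lies inside its gene (chr5:138272514-138312397). The window of Rad21l had 2 CpG dinucleotides, against a median of 7 over all promoters, while the other 5 genes had 16 to 30. These matches describe letters in the reference sequence and were not tested for binding.

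The targeted gene was lower in Rnf2delta than in control arrays without overlap in 3 of the 4 matched pairs of groups. Rnf2 read 3.81 to 4.04 log2 units in Rnf2delta E11.5 females, against 4.46 to 4.61 in control E11.5 females. In E11.5 males it read 4.01 to 4.57 in Rnf2delta and 4.13 to 4.79 in controls, which overlap. At E12.5 it read 4.47 to 5.0 in Rnf2delta females against 5.08 to 5.71 in control females, and 4.09 to 4.46 in Rnf2delta males against 5.21 to 5.68 in control males. Its position relative to the deletion is unknown, so this checks the labels only in part. Germ cell markers (8 genes) averaged 7.0 to 7.56 log2 units on every array. Within that list, in Rnf2delta against control E12.5 females, Dppa3, Pou5f1 and Prdm1 were called lower, at -0.56, -0.65 and -0.50 (limma, adjusted p = 0.014, 0.0068 and 0.032), while Dazl and Ddx4 differed by 0.62 and 0.58 (adjusted p = 0.12 and 0.15). These 3 calls were lost without replicate 1 of the Rnf2delta group, that of Prdm1 also without replicate 1 or 2 of the controls, and their part in the results was not tested. Markers of supporting, interstitial, steroidogenic, endothelial and macrophage cells averaged between 1.90 and 3.35. Array replicate 3 of the Rnf2delta E12.5 males had 9.71 log2 units of the embryonic globin Hbb-y, against 1.85 and 1.88 on the other 2 arrays of that group. The E12.5 female arrays varied most within their groups, with a median gene SD of 0.207 in Rnf2delta and 0.238 in controls, against 0.140 to 0.175 in the other 8 groups.

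**Figure D1:**
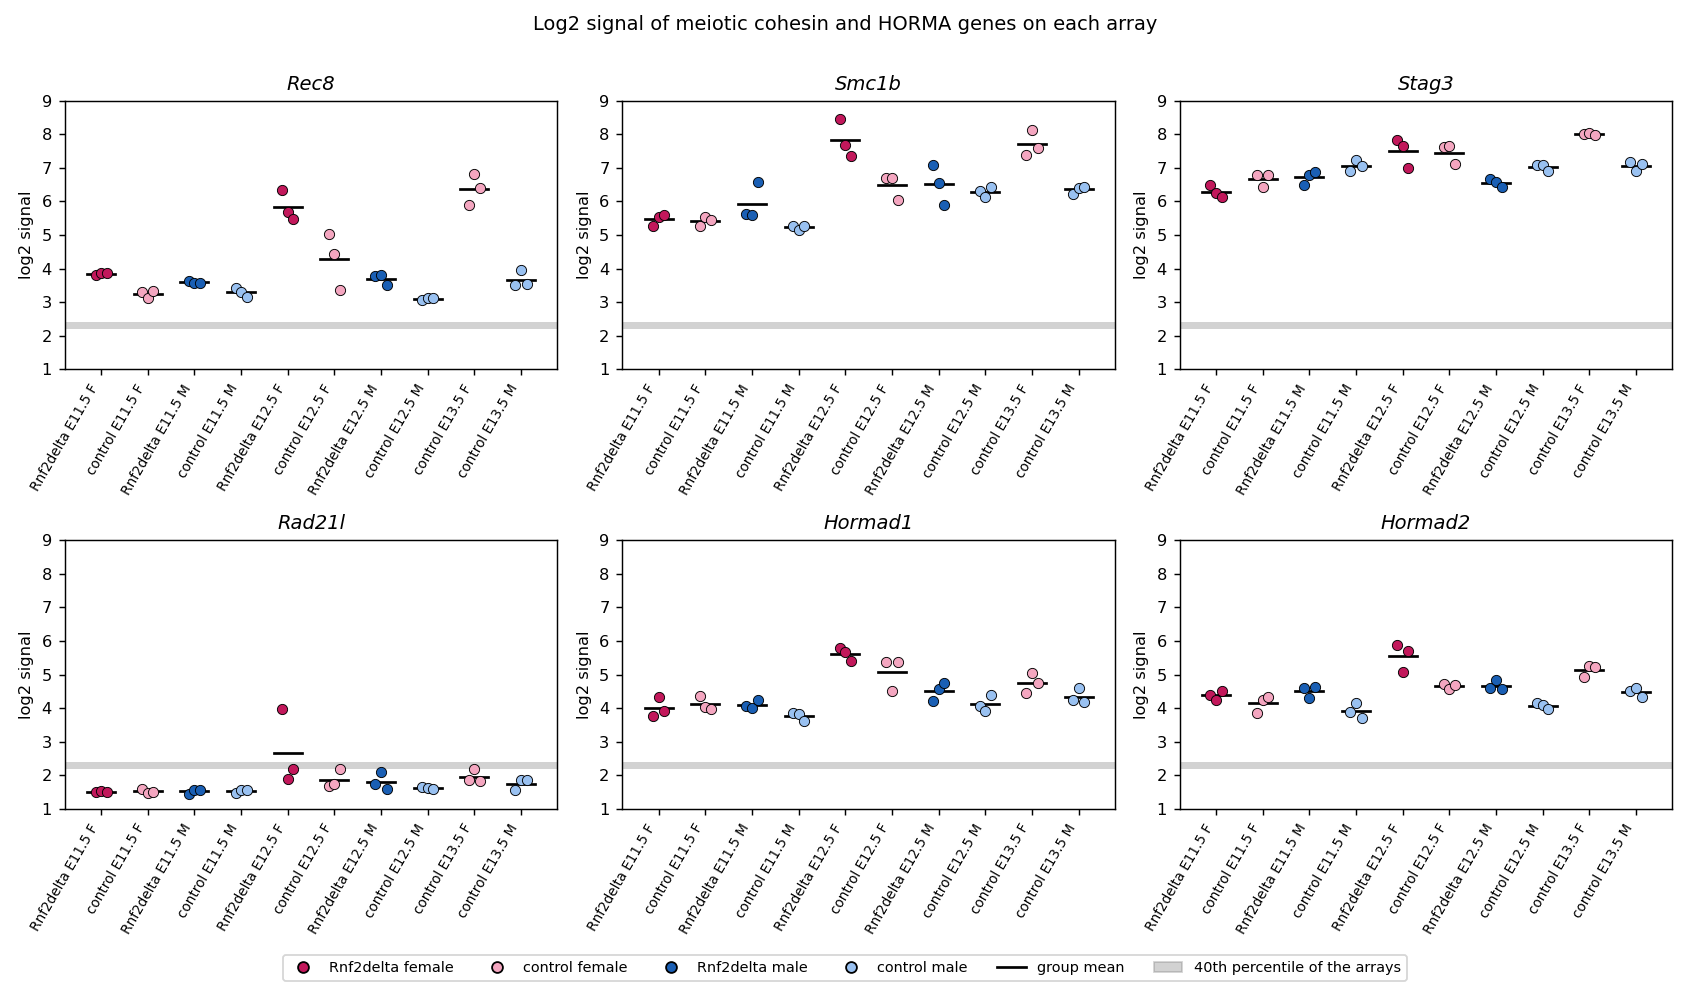
Log2 signal of each of the 6 genes on all 30 arrays, with groups on the horizontal axis, a point for each array and a bar for each group mean. Control E13.5 females and Rnf2delta E12.5 females hold the highest means of Rec8, Smc1b and Hormad2, while Rad21l stays below the filter level on all but 1 array. For Stag3 control E13.5 females are highest, and Rnf2delta and control E12.5 females overlap, with means of 7.49 and 7.46.

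In control females all 5 measured genes rose between E11.5 and E12.5, and Rec8, Smc1b, Stag3 and Hormad2 rose again by E13.5, whereas Hormad1 did not pass the test in the second interval. Rec8 changed most, with a gain of 3.12 ± 0.26 log2 units (SE) over the whole span, a comparison added after the data were seen, across which all 5 genes were called higher and 14.2% of all genes were. Comparisons used limma with Benjamini-Hochberg adjustment over 15180 genes and called a gene at an adjusted p under 0.05. In the first interval 5 of 5 genes were called higher, where 4.56% of all genes were, and in the second 4 of 5, where 17% were. The median difference of the 5 was 0.96 log2 units in the first interval and 0.56 in the second, against -0.07 and 0.08 over all genes. Arrays lay wholly higher for 5 genes in the first interval and for 4 in the second, as for 8.25% and 22.2% of all genes. Both intervals share the E12.5 arrays. With no other groups in the fit the counts were 3 and 2, Rec8 (adjusted p = 0.103) and Hormad2 (adjusted p = 0.115) losing the first call and Stag3 (adjusted p = 0.079) and Hormad2 (adjusted p = 0.083) the second.

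Rec8, the kleisin of both meiotic divisions, read 3.30, 3.12 and 3.33 log2 units in control females at E11.5. It read 5.02, 4.43 and 3.36 at E12.5, and 5.88, 6.83 and 6.40 at E13.5. The 3 stages did not overlap, but the E12.5 arrays spread widely (SD 0.84), with replicate 3 just above the E11.5 range. The difference was 1.02 ± 0.26 log2 units (SE) for E12.5 minus E11.5 (limma, adjusted p = 0.0057) and 2.10 ± 0.26 for E13.5 minus E12.5 (adjusted p = 1.6e-06, 4.28-fold). Without replicate 1 of the control E12.5 females the first difference was 0.65, with an adjusted p of 0.078.

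Smc1b, the SMC subunit of meiotic cohesin, read 5.28, 5.54 and 5.45 log2 units in control females at E11.5. It read 6.70, 6.70 and 6.04 at E12.5, and 7.40, 8.12 and 7.59 at E13.5. Each stage lay wholly above the one before. The steps were 1.06 ± 0.27 log2 units (limma, adjusted p = 0.0057) and 1.22 ± 0.27 (adjusted p = 0.0014).

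Stag3, the STAG subunit shared by the REC8 and RAD21L complexes, already read 6.80, 6.42 and 6.79 log2 units at E11.5. It read 7.63, 7.64 and 7.11 at E12.5, and 8.01, 8.05 and 7.99 at E13.5. The last group was the tightest of the gene's 10, with an SD of 0.03. The steps were 0.79 ± 0.18 (limma, adjusted p = 0.0019) and 0.56 ± 0.18 (adjusted p = 0.021). Without replicate 3 of the control E12.5 females the second step was 0.38 with an adjusted p of 0.151, and without replicate 1 or 2 of the E13.5 group its adjusted p was 0.051 or 0.063.

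Of the 2 HORMA genes, Hormad2 alone passed the test in both intervals. Hormad1 read 4.36, 4.04 and 3.97 log2 units at E11.5, 5.37, 4.51 and 5.36 at E12.5, and 4.46, 5.05 and 4.74 at E13.5 in control females. It rose by 0.96 ± 0.20 in the first interval (limma, adjusted p = 0.0012), and the second difference was -0.33 ± 0.20 (adjusted p = 0.26), with overlapping arrays. Hormad1 was nonetheless 0.63 ± 0.20 higher at E13.5 than at E11.5 (adjusted p = 0.021). Without replicate 2 of the control E12.5 females, the lowest array of that group, the second difference was -0.62 with an adjusted p of 0.022. Hormad2 read 3.85, 4.23 and 4.34 at E11.5, 4.71, 4.57 and 4.68 at E12.5, and 4.94, 5.26 and 5.21 at E13.5. Its 3 stages did not overlap, and its steps were 0.51 ± 0.17 (adjusted p = 0.030) and 0.48 ± 0.17 (adjusted p = 0.038). The first step lost the call without replicate 1 of the control E11.5 females (0.37, adjusted p = 0.186) or replicate 1 or 3 of the E12.5 group (adjusted p = 0.086 and 0.061). The second lost it without any 1 of the E12.5 arrays or without replicate 2 or 3 of the E13.5 group.

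In control males Smc1b alone was called between E11.5 and E12.5, where 0.962% of all genes were higher, and 0 of 5 genes were called between E12.5 and E13.5 by limma, where 1.1% of genes were in either direction. Of the 5, 2 had an unadjusted p under 0.05 in that second interval, as 9.97% of all genes had. Smc1b read 5.28, 5.14 and 5.26 log2 units at E11.5, 6.31, 6.13 and 6.43 at E12.5, and 6.24, 6.39 and 6.45 at E13.5. It thus rose by 1.06 ± 0.27 (limma, adjusted p = 0.028), the same size as in females, and differed by 0.07 ± 0.27 afterwards. The first call was lost without any 1 of the 6 arrays, with adjusted p between 0.057 and 0.128. Over the whole span from E11.5 to E13.5 Smc1b was 1.13 ± 0.27 higher at E13.5 (adjusted p = 0.0056) and Hormad2 0.57 ± 0.17 (adjusted p = 0.024), where 5.32% of genes were called higher. Hormad1 was higher by 0.58 ± 0.20 (adjusted p = 0.062), against 0.63 ± 0.20 in control females, and was called without the E12.5 female arrays in the fit (adjusted p = 0.022). No difference between the sexes in these spans was tested. Stag3 differed by -0.01 ± 0.18 over the same span, with 7.16, 6.90 and 7.12 log2 units at E13.5 and 6.90, 7.25 and 7.06 at E11.5. Rec8 read 3.41, 3.32 and 3.14 at E11.5, 3.05, 3.13 and 3.13 at E12.5, and 3.51, 3.96 and 3.55 at E13.5, and was not called.

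The sexes did not differ detectably at E11.5, and differed most in Rec8 thereafter. At E11.5 0 of 5 genes were called between control females and males by limma (0.25% of all genes were), and only Stag3 had an unadjusted p under 0.05, where 8.44% of all genes had, with a difference of -0.40 ± 0.18 log2 units. At E12.5 3 of 5 were higher in control females, where 4.31% of genes were: Rec8 by 1.17 ± 0.26 (adjusted p = 0.0017), Hormad1 by 0.96 ± 0.20 (adjusted p = 0.0011) and Hormad2 by 0.59 ± 0.17 (adjusted p = 0.012). Smc1b, which rose in both sexes over this interval, differed by 0.19 ± 0.27 (adjusted p = 0.69), and Stag3 by 0.43 ± 0.18 (adjusted p = 0.089). The call was lost for Rec8 when the fit held the compared groups alone (adjusted p = 0.066) and for Hormad2 with array weights (adjusted p = 0.057). At E13.5 4 of 5 were higher in females, where 7.91% of genes were. Rec8 differed by 2.70 ± 0.26, or 6.49-fold (adjusted p = 2.1e-08), Smc1b by 1.35 ± 0.27 (adjusted p = 0.00066), Stag3 by 0.95 ± 0.18 (adjusted p = 0.00027) and Hormad2 by 0.65 ± 0.17 (adjusted p = 0.0067). Hormad1 differed by 0.40 ± 0.20 (adjusted p = 0.20), with 4.46, 5.05 and 4.74 in females overlapping 4.23, 4.61 and 4.19 in males.

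**Figure D2:**
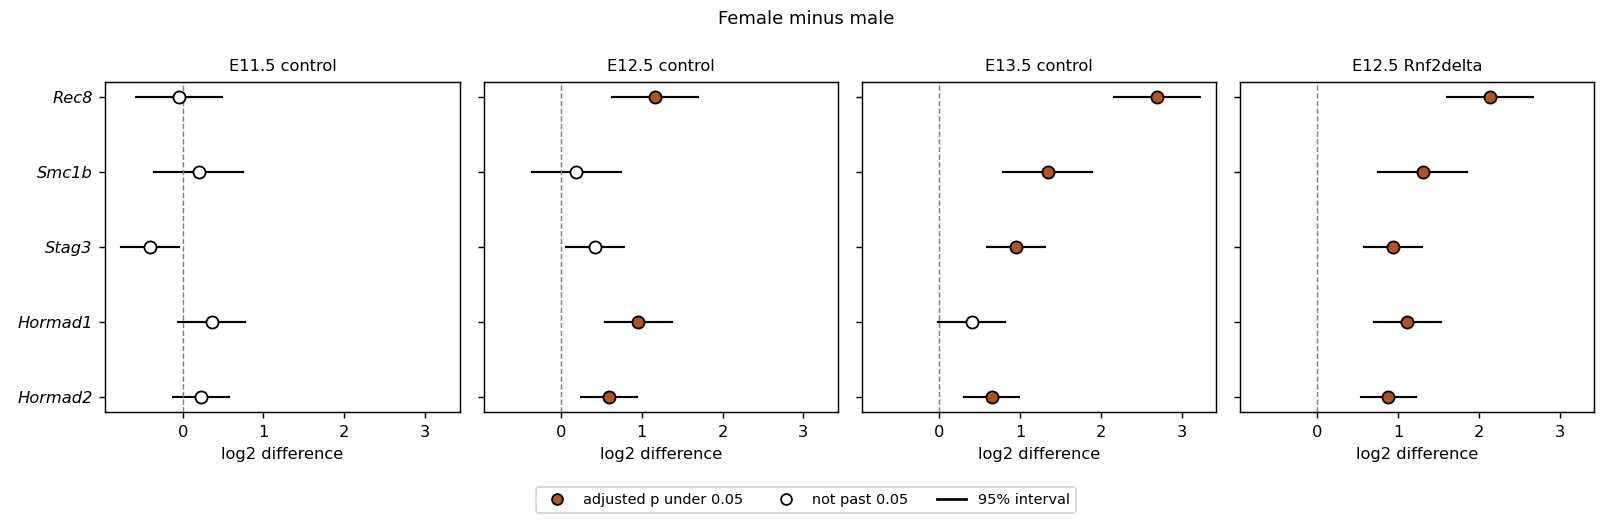
Female minus male difference in log2 signal for the 5 measured genes in E11.5, E12.5 and E13.5 controls and in E12.5 Rnf2delta cells, with 95% confidence intervals from the limma fit. The E11.5 differences run from -0.40 to 0.36, and Rec8 reaches 2.70 in E13.5 controls and 2.14 in E12.5 Rnf2delta cells.

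In Rnf2delta E12.5 females Rec8, Smc1b and Hormad2 were higher than in control E12.5 females, by 2.96-fold, 2.52-fold and 1.86-fold. Hormad1 was higher on every array but missed the threshold, and Stag3 did not differ detectably. The count was 3 of 5 higher and 0 lower, where 7.73% of all genes were called higher and 2.16% lower, and the median difference of the 5 was 0.90 log2 units against 0.05 over all genes. Arrays of the 2 genotypes did not overlap for 4 of the 5 genes, where 11.9% of all genes lay wholly higher.

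Rec8 read 6.35, 5.69 and 5.48 log2 units in Rnf2delta E12.5 females, against 5.02, 4.43 and 3.36 in control E12.5 females. The difference was 1.57 log2 units, with a 95% confidence interval of 1.03 to 2.10 (limma, adjusted p = 0.00027). The SDs of these 2 groups were 0.45 and 0.84. The interval rests on a spread pooled over all 10 groups, and these 2 groups alone would give a wider one. Smc1b read 8.44, 7.67 and 7.34 in Rnf2delta and 6.70, 6.70 and 6.04 in control cells. It differed by 1.34, with an interval of 0.79 to 1.89 (adjusted p = 0.0018). For both genes replicate 1 was the highest Rnf2delta array and replicate 3 the lowest control array, and the 2 genotypes lay apart.

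Hormad2, the HORMA protein that marks unsynapsed axes, read 5.87, 5.07 and 5.71 log2 units in Rnf2delta E12.5 females, against 4.71, 4.57 and 4.68 in control E12.5 females. The difference was 0.90, with an interval of 0.55 to 1.24 (limma, adjusted p = 0.00089). Hormad1, its relative that also promotes double-strand break formation, read 5.79, 5.68 and 5.40 in Rnf2delta and 5.37, 4.51 and 5.36 in control cells. The lowest Rnf2delta array stood just above the highest control array, and the difference of 0.54, with an interval of 0.13 to 0.96, had an adjusted p of 0.087. Stag3 read 7.83, 7.66 and 6.99 in Rnf2delta and 7.63, 7.64 and 7.11 in control cells. These overlapped, with a difference of 0.04 (-0.08 after quantile normalization) and an interval of -0.32 to 0.39 (adjusted p = 0.93). Replicate 1 was the highest Rnf2delta array for all 6 genes. Without it Rec8 differed by 1.31, Smc1b by 1.02 and Hormad2 by 0.74, all 3 still called. With only the 6 arrays of this comparison in the fit no gene of the 5 was called, and the 3 adjusted p values lay between 0.106 and 0.161, and with array weights Hormad2 was not called (adjusted p = 0.054).

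**Figure D3:**
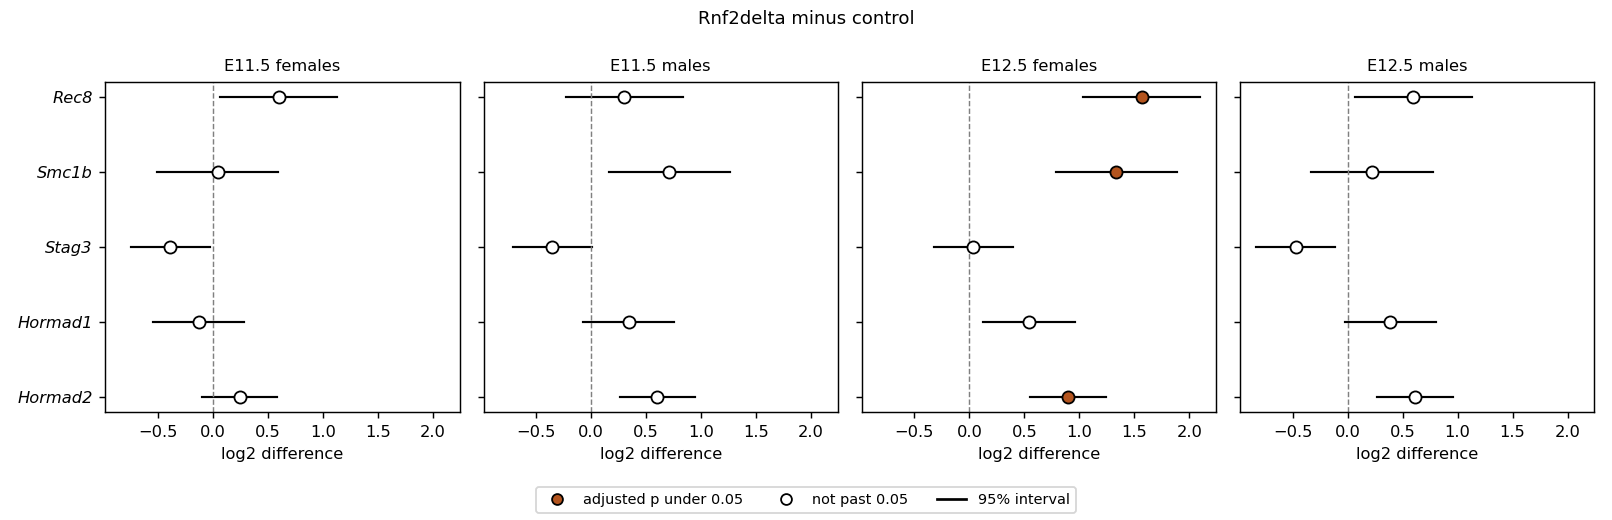
Rnf2delta minus control difference in log2 signal for the 5 measured genes at E11.5 and E12.5 in each sex, with 95% confidence intervals from the limma fit. In E12.5 females the intervals of Rec8, Smc1b, Hormad1 and Hormad2 lie wholly above 0. So do those of Rec8 in E11.5 females and E12.5 males, of Smc1b in E11.5 males, and of Hormad2 in males at both stages. Only Rec8, Smc1b and Hormad2 in E12.5 females were called. Stag3 is at 0.04 in E12.5 females and below 0 in the other 3 comparisons.

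No gene of the 5 was called in the other 3 comparisons of genotype, in limma with all 30 arrays. In E11.5 females, where 0.553% of genes were called in either direction, Rec8 read 3.80, 3.88 and 3.86 log2 units in Rnf2delta and 3.30, 3.12 and 3.33 in control cells, a difference of 0.60 ± 0.26 (adjusted p = 0.57) between groups that did not overlap, as 9.71% of all genes lay wholly higher. The SDs of Rec8 in these groups were 0.04 and 0.11, both below the spread pooled over all 10 groups, on which this SE rests. Rec8 and Stag3, the second at -0.39 ± 0.18, had an unadjusted p under 0.05 there, as 6.95% of all genes had. In E11.5 males, where 0.718% of genes were called in either direction, 4 of the 5 lay wholly higher on the Rnf2delta arrays, as 8.74% of all genes did, and the remaining one, Stag3, lay wholly lower, as 6.83% did. Stag3 read 6.48, 6.78 and 6.88 in Rnf2delta E11.5 males, against 6.90, 7.25 and 7.06 in control E11.5 males, a difference of -0.35 ± 0.18 (adjusted p = 0.65). Smc1b and Hormad2 had an unadjusted p under 0.05, as 7.82% of all genes had, at 0.71 ± 0.27 and 0.60 ± 0.17 (adjusted p = 0.36 and 0.11). Hormad2 read 4.60, 4.31 and 4.63 in Rnf2delta E11.5 males, against 3.89, 4.15 and 3.70 in control E11.5 males.

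In E12.5 males, where 0.962% of genes were called in either direction, Rec8 and Hormad2 lay wholly higher on the Rnf2delta arrays, as 8.64% of all genes did, at 0.60 ± 0.26 and 0.61 ± 0.17 log2 units (limma, adjusted p = 0.49 and 0.082). Rec8 read 3.77, 3.82 and 3.51 in Rnf2delta E12.5 males (SD 0.17), against 3.05, 3.13 and 3.13 in control E12.5 males (SD 0.04). Stag3 lay wholly lower, as 5.99% of all genes did, with 6.67, 6.59 and 6.42 in Rnf2delta against 7.09, 7.08 and 6.92 in control cells, a difference of -0.47 ± 0.18 (adjusted p = 0.33). These 3 genes had an unadjusted p under 0.05, as 8.56% of all genes had. Without the Rnf2delta replicate rich in Hbb-y the differences were 0.69 for Rec8, 0.66 for Hormad2 and -0.40 for Stag3, again with 0 called. Hormad2 was called in both male comparisons when arrays were weighted by their quality or when the E12.5 female arrays were left out of the fit, with adjusted p between 0.017 and 0.030.

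Whether the genotype effect in E12.5 females differed from that in E12.5 males or in E11.5 females was tested directly, and no gene of the 5 passed. The Rnf2delta effect in E12.5 females minus that in E12.5 males was 0.97 ± 0.37 log2 units for Rec8 and 1.11 ± 0.38 for Smc1b (limma, adjusted p = 0.22 and 0.17). Of the 5 genes 0 passed, where 0.296% of all genes did, and 3 had an unadjusted p under 0.05, as 13.4% of all genes had. The effect in E12.5 females minus that in E11.5 females was 0.97 ± 0.37 for Rec8 and 1.29 ± 0.38 for Smc1b (adjusted p = 0.31 and 0.15), again with 0 of 5 past the threshold, where 0.145% of genes were, and 4 with an unadjusted p under 0.05, as 11.1% of all genes had. Without replicate 3 of the control E12.5 females the Rec8 values were 0.52 and 0.51. Leaving out 1 array moved the count over all genes between 7 and 313 in the first comparison and between 4 and 126 in the second.

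Between E11.5 and E12.5 in Rnf2delta females all 5 genes rose, where 6.96% of all genes did. Smc1b read 8.44, 7.67 and 7.34 log2 units at E12.5 against 5.28, 5.54 and 5.59 at E11.5, a difference of 2.35 ± 0.27 (limma, adjusted p = 1.0e-06). Rec8 differed by 1.99 ± 0.26 (adjusted p = 6.5e-06) and Hormad1 by 1.63 ± 0.20 (adjusted p = 3.8e-06). Stag3 rose by 1.21 ± 0.18 (adjusted p = 2.3e-05), with 7.83, 7.66 and 6.99 at E12.5 against 6.48, 6.24 and 6.12 at E11.5. Hormad2 rose by 1.17 ± 0.17 (adjusted p = 2.0e-05). These 5 calls were kept in every alternative run. In Rnf2delta males 0 of 5 were called over the same interval by limma, where 0.547% of genes were in either direction, and 1 had an unadjusted p under 0.05, where 11.7% of all genes had. In E12.5 Rnf2delta cells all 5 were higher in females than in males, where 5.9% of genes were, from 0.88 ± 0.17 for Hormad2 to 2.14 ± 0.26 for Rec8 (adjusted p between 1.9e-06 and 0.0012).

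Rnf2delta females at E12.5 were also set against control females at the next stage, E13.5; each group also enters comparisons above. Hormad1 was higher in Rnf2delta E12.5 females by 0.87 ± 0.20 log2 units (limma, adjusted p = 0.0059), the only gene of the 5 called, where 9.45% of all genes were in either direction. Its arrays read 5.79, 5.68 and 5.40 in Rnf2delta E12.5 females, against 4.46, 5.05 and 4.74 in control E13.5 females. Stag3 lay wholly lower in Rnf2delta E12.5 females, as 15.5% of all genes did. It read 7.83, 7.66 and 6.99 there against 7.99 to 8.05 in control E13.5 females, a difference of -0.53 ± 0.18 (limma, adjusted p = 0.056). Rec8 differed by -0.53 ± 0.26 (limma, adjusted p = 0.21), Smc1b by 0.12 ± 0.27, and Hormad2 by 0.41 ± 0.17 (adjusted p = 0.12), all 3 with overlapping arrays. At an unadjusted p under 0.05, 2 of the 5 genes were higher and 2 lower, where 23.4% of all genes passed in either direction. Stag3 was called lower in some alternatives, with an adjusted p of 0.016 without replicate 1 of the Rnf2delta E12.5 females. Without replicate 2 of that group Hormad2 was called higher, by 0.65 with an adjusted p of 0.012.

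Ordered by mean over the 10 groups, Rec8 was highest in control E13.5 females and next in Rnf2delta E12.5 females, whose arrays overlapped, and both lay wholly above control E12.5 females. Below these, the neighbouring groups of Rec8 overlapped except between Rnf2delta E11.5 males, at 3.59, and control E11.5 males, at 3.29. Smc1b and Hormad2 had the same 2 groups at the top in the opposite order, overlapping, and then a gap to Rnf2delta E12.5 males. For Stag3 control E13.5 females stood alone at the top. Lower in the order, neighbouring groups of these genes overlapped except control E11.5 females over control E11.5 males for Smc1b, and control E12.5 males over Rnf2delta E11.5 males for Stag3. Hormad1 alone had Rnf2delta E12.5 females wholly above every other group, with a lowest array of 5.40 against a highest of 5.37 in control E12.5 females. On a second, dimmer probe set of Hormad1 these 2 groups overlapped, at 3.66 to 5.51 and 3.33 to 3.94. Across the 10 group means, Pearson's r between pairs of the 5 measured genes lay between 0.558 for Stag3 with Hormad2 and 0.903 for Smc1b with Hormad2, a description of 10 points that share arrays.

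Rad21l, the second meiotic kleisin, gave no usable level. It read 3.97 log2 units on replicate 1 of the Rnf2delta E12.5 females, whose other 2 arrays read 1.87 and 2.18. Every other array read between 1.44 and 2.20 and lay under its own filter level, which ranged from 2.20 to 2.40 over the arrays. A second Rad21l probe set was under the filter on all 30 arrays and read 1.91 on that same array. Hormad1 also had a second probe set, dimmer and above the filter on 24 arrays. It was called higher at E12.5 than at E11.5 in control females, by 1.48 (limma, adjusted p = 0.00075), and in Rnf2delta females, by 2.21 (adjusted p = 1.1e-05), and its second interval in control females was -0.09. Between genotypes in E12.5 females it differed by 0.70 (adjusted p = 0.14), with 5.51, 3.82 and 3.66 in Rnf2delta against 3.94, 3.33 and 3.64 in control cells. Against control E13.5 females it differed by 0.78 (adjusted p = 0.094), so the call of the brighter probe set was not met by the dimmer one.

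Of Rad21, Smc1a, Smc3, Stag1 and Stag2, 1 of 5 was called higher in Rnf2delta than in control E12.5 females, where 7.73% of all genes were. Stag2 was higher by 0.59 log2 units (limma, adjusted p = 0.020), and the median of the 5 was 0.20. That call was lost without replicate 2 of the control group or replicate 1 or 2 of the Rnf2delta group (adjusted p = 0.055, 0.072 and 0.066). In control females Smc1a fell by 0.80 between E11.5 and E12.5 (adjusted p = 0.00026) while Stag1 rose by 0.62 (adjusted p = 0.0041). Of all genes 14.2% were called lower and 4.56% higher there. Between E12.5 and E13.5 0 of 5 were called, where 21.8% of all genes were in either direction. In Rnf2delta females Stag1 rose by 1.01 and Stag2 by 0.80 between E11.5 and E12.5, while Smc1a fell by 0.54. Thus 3 mitotic and all 3 measured meiotic cohesin genes (Rec8, Smc1b and Stag3) were called there, where 6.96% of all genes were higher and 11.7% lower. The Smc1a call was lost without replicate 1 of the Rnf2delta E12.5 females (-0.39, limma, adjusted p = 0.090). In Rnf2delta males Stag2 was called higher at E12.5 than at E11.5, by 0.77 (adjusted p = 0.021), where 0.152% of all genes were, and no meiotic cohesin gene was. The Stag2 call was lost without replicate 1 or 2 of either stage. In control E13.5 cells Stag2 was lower in females than in males, at -0.51, where 8.37% of all genes were lower. It was the only one of the 5 called, which leaving out replicate 1 or 3 of the females or 1 or 2 of the males ended. In E12.5 controls Smc3 was lower in females, at -0.47 (limma, adjusted p = 0.025), where 14.7% of all genes were lower. In E12.5 Rnf2delta cells Rad21 was lower in females, at -0.46 (limma, adjusted p = 0.042), where 9.27% of all genes were. Stag1 was higher there, at 0.50 (limma, adjusted p = 0.024), where 5.9% of all genes were. Each of these calls was lost when some single arrays were left out. No difference between a meiotic subunit and its counterpart was tested.

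**Figure D4:**
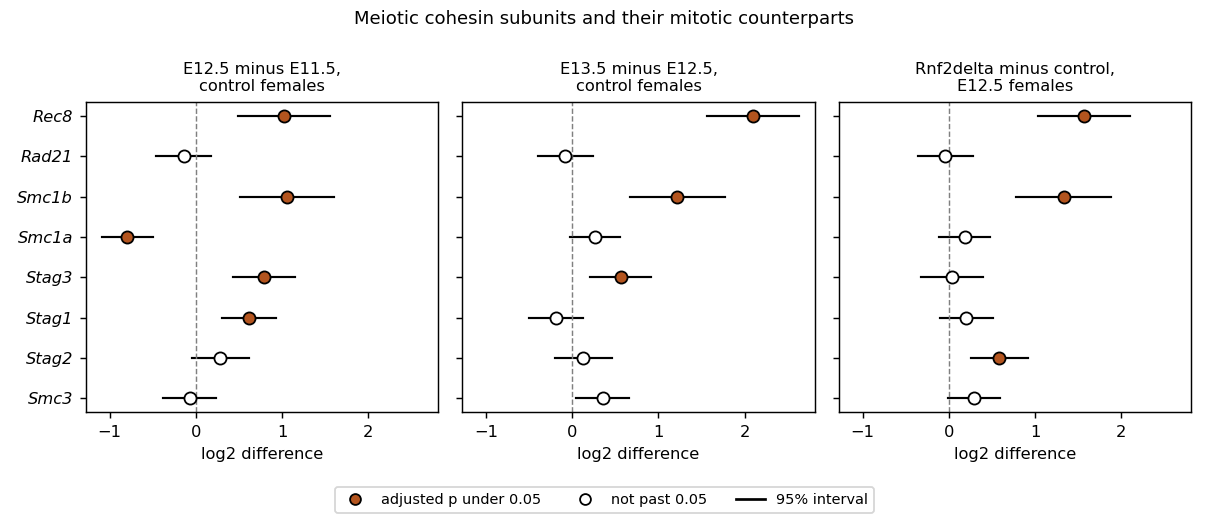
Difference in log2 signal for the meiotic cohesin subunits and their mitotic counterparts in both control female intervals and in Rnf2delta against control E12.5 females, with 95% confidence intervals from the limma fit. In Rnf2delta against control E12.5 females Rec8 and Smc1b lie above 1, Stag3 lies at 0.04, and the mitotic subunits run from -0.04 to 0.59.

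Of the genes for axis and synapsis partners, such as the synaptonemal complex proteins, 18 were measured. In Rnf2delta against control E12.5 females 11 of 18 were called higher and 0 lower, where 7.73% and 2.16% of all genes were. The median difference was 0.80 log2 units, and the 11 included Stra8, the inducer of meiotic entry, at 2.79, and Sycp3, an axis component, at 2.35. The mean of the list, here with 19 genes, spread most in the Rnf2delta E12.5 females, from 4.34 to 5.32 log2 units (SD 0.51). In control females 1 of 18 was higher at E12.5 than at E11.5, where 4.56% of all genes were. This was Sycp1, by 0.98 (limma, adjusted p = 0.015, and 0.051 to 0.075 without replicate 1 or 2 of the E11.5 group or replicate 2 of the E12.5 group). Of the 18, 10 were higher at E13.5 than at E12.5, where 17% of all genes were. In E12.5 controls 0 of 18 were higher in females, where 4.31% of all genes were. Trip13, which removes HORMADs from axes, and Rec114, a cofactor of break formation, were lower in females by limma, at -0.56 and -0.67, where 14.7% of all genes were lower. Both calls were lost without replicate 1 of the females (adjusted p = 0.085 and 0.071) or of the males. In E13.5 controls 9 of 18 were higher in females, where 7.91% of all genes were. In Rnf2delta against control males Sycp3 was higher at E11.5, at 1.52 (adjusted p = 0.016), where 0.679% of all genes were. Sycp1 and Syce1 were higher at E12.5, at 1.31 and 0.91, where 0.843% of all genes were. Each of these 3 male calls was lost when some single arrays were left out, with adjusted p up to 0.213 for Sycp3, 0.115 for Sycp1 and 0.241 for Syce1. Differences between this list and the 5 genes were not tested.

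Over the 10 group means, the 3 genes most like each of the measured genes had Pearson's r between 0.927 and 0.990, chosen from 15175 genes. They were Vrk2, Coch and Gamt for Rec8, Ints6, Dzip3 and Rspry1 for Smc1b, and Glcci1, Snx13 and Gm17484 for Stag3. For Hormad1 they were Ergic2, Fam107b and Zfp943, and for Hormad2 Mga, Shcbp1l and Cdk12.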

How the data were processed

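Signals of Affymetrix Mouse Gene 1.0 ST arrays (34760 probe sets, 30 arrays, 10 groups of 3) were used as the authors deposited them, on a log2 scale; array medians were 2.52 to 2.66. R 2.15 and affy 1.36 are named in the submitters' processing notes, and the sources used here do not give the background correction, normalization or probe summary. The number of arrays limits precision.

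Probe sets with 1 annotated symbol (21640, of which 21553 were matched by Entrez ID to current symbols) gave 19937 genes, each represented by its probe set of highest mean. Genes above their array's 40th percentile on at least 3 arrays were kept (15180). 1 limma model (R 4.3.3, limma 3.58.1) with 10 group means and 20 residual degrees of freedom gave 17 contrasts. Each had Benjamini-Hochberg adjustment over all genes and a threshold of 0.05. The procedure was also run on simulated data with 1 spread per gene in all groups, which does not test groups of unequal spread. Standard errors and confidence intervals come from the fit to the 30 arrays, with 1 spread per gene pooled over the 10 groups. They are too narrow where the compared groups vary more than the rest, as Rec8 did in E12.5 females. They are too wide where the compared groups vary less, as Rec8 did in E11.5 females. Without the E12.5 female arrays the SE of Rec8 between E11.5 and E13.5 controls was 0.16 instead of 0.26. Besides the 6 genes, up to 4 called genes of each list per comparison could be named, those of smallest p, and the 3 most correlated genes of each. The genes and lists were chosen with earlier results of these data known. Over all groups same-numbered arrays did not deviate together (mean r 0.00497 over 135 pairs, against -0.00239 over 270 pairs of unlike numbers), so no pairing was assumed. Every same-number correlation passed 0.1 in 1 of 15 comparisons, Rnf2delta against control E11.5 males. Between genotypes they were 0.18, 0.096 and 0.29 in E12.5 males, 0.093, 0.059 and 0.079 in E12.5 females, and 0.15, -0.064 and -0.14 in E11.5 females. A pairing within genotype comparisons is thus not excluded. Alternatives were quantile normalization, a filter at the 60th percentile, no filter, the mean of probe sets, a prior with trend and robust estimation, array weights, a replicate block, fits of the compared groups only, fits without the E12.5 female arrays, and each array left out, for genes of the lists as a check added after seeing the data.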

Additional observations from a re-analysis of the deposited data

How the results depend on the processing

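In every alternative run, the 4 calls between the sexes in E13.5 controls, the 5 in E12.5 Rnf2delta cells and the rise of all 5 genes in Rnf2delta females kept direction and call. Fitting only the compared groups gave 0 genes called instead of 3 for genotype in E12.5 females, 3 instead of 5 for E12.5 against E11.5 and 2 instead of 4 for E13.5 against E12.5 in control females. Array weights, and leaving out the E12.5 female arrays, gave 1 instead of 0 for genotype in E11.5 and in E12.5 males. For Rnf2delta E12.5 against control E13.5 females, quantile normalization, the stricter filter and the prior with trend gave 2 instead of 1. A replicate block changed no count of these genes (3 for genotype in E12.5 females, 0 in E11.5 males, where same-numbered arrays did deviate together). The block was shared by all groups and so does not test a pairing within a single comparison. Of the 30 arrays, 12 correlated best with their own number. Leaving out 1 array gave 3 to 3 for genotype in E12.5 females, 3 to 5 and 2 to 4 for the control female steps, 0 to 0 instead of 1 for E12.5 against E11.5 control males, and 1 to 2 for Rnf2delta E12.5 against control E13.5 females.

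Differences near 0 changed sign. Stag3 between genotypes in E12.5 females was -0.080 after quantile normalization and -0.14 to 0.29 with 1 array left out. Other ranges with 1 array left out were -0.027 to 0.14 (Smc1b, genotype, E11.5 females), -0.064 to 0.53 (Smc1b, genotype, E12.5 males), -0.12 to 0.052 (Stag3, E12.5 against E11.5 control males), -0.015 to 0.13 (Smc1b) and -0.024 to 0.11 (Stag3) for E13.5 against E12.5 control males, -0.12 to 0.020 (Rec8, sex, E11.5 controls), -0.20 to 0.35 (Smc1b, Rnf2delta E12.5 against control E13.5 females) and -0.13 to 0.30 (Hormad1, genotype effect in E12.5 females minus males).

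Counts over all genes moved more. With array weights, calls for genotype were 157 instead of 84 (E11.5 females), 344 instead of 109 (E11.5 males), 254 instead of 1502 (E12.5 females) and 285 instead of 146 (E12.5 males). Stage steps gave 1604 instead of 2853 and 2184 instead of 3309 in control females, 1241 instead of 397 and 456 instead of 167 in control males, and 443 instead of 83 in Rnf2delta males. The sexes gave 117 instead of 38 at E11.5 and 1876 instead of 2892 at E12.5 in controls, and the differences of genotype effects 5 instead of 45 and 6 instead of 22. With the compared groups only, E12.5 females gave 54 for genotype, the control female steps 926 and 1461, the first control male step 781, the Rnf2delta steps 1746 instead of 2827 (females) and 13 (males), the sexes at E12.5 1150 in controls and 995 instead of 2303 in Rnf2delta cells, Rnf2delta E12.5 against control E13.5 females 499 instead of 1434, and the differences of effects 1 and 0. Without the E12.5 female arrays the counts were 151 (E11.5 females), 228 and 253 (E11.5 and E12.5 males) for genotype, 907 and 330 for the control male steps, 302 for Rnf2delta males and 86 for the sexes at E11.5. Signal near background limits Rad21l, and 3 arrays a group limit every estimate. The causes were not tested.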

Other observations

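Among 16 genes for loading, releasing and protecting cohesin, 3 were higher and 0 lower in Rnf2delta than in control E12.5 females, where 7.73% of all genes were higher and 2.16% lower. Nipbl, the cohesin loader, read 6.98, 6.17 and 6.29 log2 units in Rnf2delta against 5.55, 5.82 and 5.81 in control cells, a difference of 0.75 ± 0.19 (SE; limma, adjusted p = 0.010). Without replicate 1 of the Rnf2delta group it was 0.50 (adjusted p = 0.106). Esco1 and Esco2, which acetylate the ring, were higher by 0.83 ± 0.19 and 0.64 ± 0.14 (adjusted p = 0.0051 and 0.0039), Esco1 with overlapping arrays. In the other 3 genotype comparisons 0 of 16 were called by limma, where 0.553% to 0.962% of all genes were.

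Aurkb, the kinase of the chromosomal passenger complex, was lower in females than in males in E12.5 and E13.5 controls, by -1.65 ± 0.35 and -1.24 ± 0.35 (limma, adjusted p = 0.0012 and 0.015), where 14.7% and 8.37% of all genes were lower. Without replicate 1 of the control E12.5 females the E12.5 difference was -0.95 (adjusted p = 0.015), and without replicate 2 of the control E13.5 females the later one was -1.14 (adjusted p = 0.066). In control females Aurkb read 6.62, 6.62 and 6.61 at E11.5, 3.49, 5.58 and 5.63 at E12.5, and 5.82, 5.35 and 5.48 at E13.5. The lowest value stood on replicate 1 of the E12.5 group, the array of that group with the highest Rec8. Cdca5 (sororin), which holds cohesin against release, was also lower in E13.5 control females than in males, at -0.80 ± 0.18 (adjusted p = 0.0018), and so was Sgo1, which protects centromeric cohesin, at -0.67 ± 0.18 (adjusted p = 0.010, and 0.094 without replicate 1 of the males).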
